A study of Mus musculus with 14 samples.

Results

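Complement is the plasma and tissue cascade that marks cells, debris and microbes for uptake. C1q, the recognition molecule that starts the classical route, is built from 3 kinds of chain, encoded by C1qa, C1qb and C1qc. C3 is the component on which the routes meet, and properdin, encoded by Cfp, stabilises the alternative-route enzyme that cleaves it. The fragments C3a and C5a signal through the receptors encoded by C3ar1 and C5ar1. Outside the liver, tissue macrophages are a well-known source of C1q, and myeloid cells carry both receptors. The 7 genes described here are these, taken by symbol as 7 of the 52459 rows of the count table.

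RNA was sequenced from cells of dispersed islets of male C57BL/6J mice, an inbred strain, aged 7 months. The cells had been sorted by flow cytometry on acidic beta-galactosidase activity, a lysosomal enzyme activity used as a marker of senescence. There were 7 libraries of beta-galactosidase-negative cells (negative) and 7 of beta-galactosidase-positive cells (positive), numbered 1 to 7 in each group. The labels name no treatment or transgene, and they do not say whether animals were pooled or whether numbered libraries came from separate mice, so each p-value reflects how much the libraries differed among themselves, part of which may be technical.

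C1qb, C1qc, C3ar1 and C5ar1 were close to absent from negative libraries and present in all positive ones. C1qa, the gene of the remaining C1q chain, did not share this pattern: it was at a nearly constant level in all negative libraries, and rose by a log2 fold change of only 1.14. C3 and Cfp were present in both groups and did not pass the test.

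Total counts were 11060144 to 23045934 reads in negative and 15585779 to 24577025 in positive libraries. The labelled tissue was checked by its markers: 8 beta cell genes together held 102400 to 153000 CPM (reads scaled to library size, with TMM factors) in negative and 98480 to 128300 in positive libraries. Summed macrophage markers, 17 genes, were at 7.15 to 16.1 CPM in negative and 68.4 to 612 CPM in positive libraries. All 13 of them that passed the filter on low counts were called higher, as were 6.40% of all genes tested. Some, such as Adgre1 and Tyrobp with 7 reads each over the negative libraries, passed only through their positive libraries. This count is therefore a description. Timd4 and Clec4f were at 0 in all negative libraries, and Clec4f in all positive ones. Positive 6 and 7 stood apart, with 612 and 423 CPM against at most 97.8 in the other 5, and among negative libraries numbers 6 and 7 were also highest, at 15.1 and 16.1 CPM. Summed endothelial markers went from between 4.18 and 61.5 CPM to between 335 and 1153 CPM, with 10 of 10 called higher. That count is a description too, as Tek and Emcn had only 41 and 59 reads over the negative libraries. In bulk RNA of sorted cells, more cells of a type and more RNA per cell cannot be told apart.

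The C1q genes lie side by side on the minus strand of chromosome 4 of GRCm38, C1qb at 136880129 to 136886187, C1qc at 136889804 to 136893065 and C1qa at 136895917 to 136898803. The stretches before the start of C1qb and C1qc, which moved together, are shown beside those of C3ar1, which moved with them, and of Cfp, which was not called. They were taken from the RefSeq promoter table on GRCm38.p6, which matched 6 of the 7 genes and had no entry for C1qa. Each is printed 5′ to 3′ on the gene's own strand, up to the most upstream annotated start. Capitals mark the purine-rich motif GAGGAA, read on either strand (TTCCTC on the other), a short core of sites known for the myeloid transcription factor PU.1.
C1qb, chr4:136886201-136886450: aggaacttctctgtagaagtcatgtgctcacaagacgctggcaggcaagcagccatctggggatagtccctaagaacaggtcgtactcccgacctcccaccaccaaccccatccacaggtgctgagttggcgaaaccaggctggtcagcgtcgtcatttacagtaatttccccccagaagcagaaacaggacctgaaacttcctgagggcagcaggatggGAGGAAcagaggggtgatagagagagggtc
C1qc, chr4:136893066-136893164: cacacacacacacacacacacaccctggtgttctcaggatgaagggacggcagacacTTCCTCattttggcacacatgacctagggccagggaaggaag
C3ar1, chr6:122856162-122856407: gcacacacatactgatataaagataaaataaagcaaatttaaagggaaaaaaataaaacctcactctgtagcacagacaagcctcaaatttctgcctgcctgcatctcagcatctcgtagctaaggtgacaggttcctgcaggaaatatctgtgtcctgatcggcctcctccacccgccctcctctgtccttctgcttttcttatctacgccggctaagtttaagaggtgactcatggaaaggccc
Cfp, chrX:20931556-20931805: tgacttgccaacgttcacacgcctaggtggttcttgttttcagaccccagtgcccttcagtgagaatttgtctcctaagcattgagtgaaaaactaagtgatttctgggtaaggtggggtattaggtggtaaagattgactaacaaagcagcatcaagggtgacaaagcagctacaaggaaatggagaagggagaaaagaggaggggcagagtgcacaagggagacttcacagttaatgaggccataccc

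In the whole windows of 300 bases around the RefSeq starts, C1qb and C1qc each held 1 match to GAGGAA, C3, C3ar1 and C5ar1 held 0, and Cfp held 2, both in the 50 bases after the start. Of 32851 such windows in the table, 28.3% held the motif. The longer form GAGGAAGT, which contains it, was found in C1qc and in 3.2% of all windows. A match describes these letters only and is not evidence of binding.

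The C1q chains come first by role. C1qb had 0, 1 and 8 reads as lowest, median and highest in negative libraries, and 94, 124 and 946 in positive libraries. In CPM the negative mean was 0.143 ± 0.169 and the positive mean 17.5 ± 19.9 (SD, n = 7 each). The groups did not overlap, and positive 6 and 7 were far above the other positive libraries, which lay between 3.795 and 7.76 CPM. The log2 fold change was 6.75 ± 0.93 (SE, adjusted p = 0.000372 edgeR quasi-likelihood F-test, Benjamini-Hochberg adjusted), and in all 7 pairs of equal number C1qb was higher in the positive library. C1qc followed it, with 0, 1 and 9 reads in negative and 53, 85 and 676 reads in positive libraries. Its level was 0.158 ± 0.207 CPM in negative and 12.2 ± 14.4 CPM in positive libraries, again without overlap and with positive 6 and 7 highest. The log2 fold change of C1qc was 6.09 ± 0.96 (adjusted p = 0.00101 in edgeR). Over the 7 negative libraries together C1qb had 19 reads and C1qc 21, which leaves the size of both folds imprecise.

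C1qa had 119, 176 and 271 reads as lowest, median and highest in negative libraries, where its partner chains had at most 9. Scaled to library size the negative libraries were close together, between 9.88 and 11.6 CPM (10.7 ± 0.61, SD, n = 7). The positive libraries had 222, 326 and 934 reads, or 13.4, 15.3 and 53.3 CPM as lowest, median and highest. No positive library was as low as any negative one, and positive 1 to 5, at 13.4 to 15.6 CPM, were only slightly above them. The log2 fold change was 1.14 ± 0.32 (SE, adjusted p = 0.0400 in edgeR), with C1qa higher in all 7 pairs. This call was near the threshold. It was lost when any of the 7 negative libraries or positive 7 was left out (adjusted p = 0.0530 to 0.0901), with no filter on low counts (0.0932) and with the replicate number as a block (log2 fold change 0.94 ± 0.32, adjusted p = 0.0870). Without all 4 libraries numbered 6 and 7, the log2 fold change was 0.41 ± 0.08 with an adjusted p of 0.0133.

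**Figure D1:**
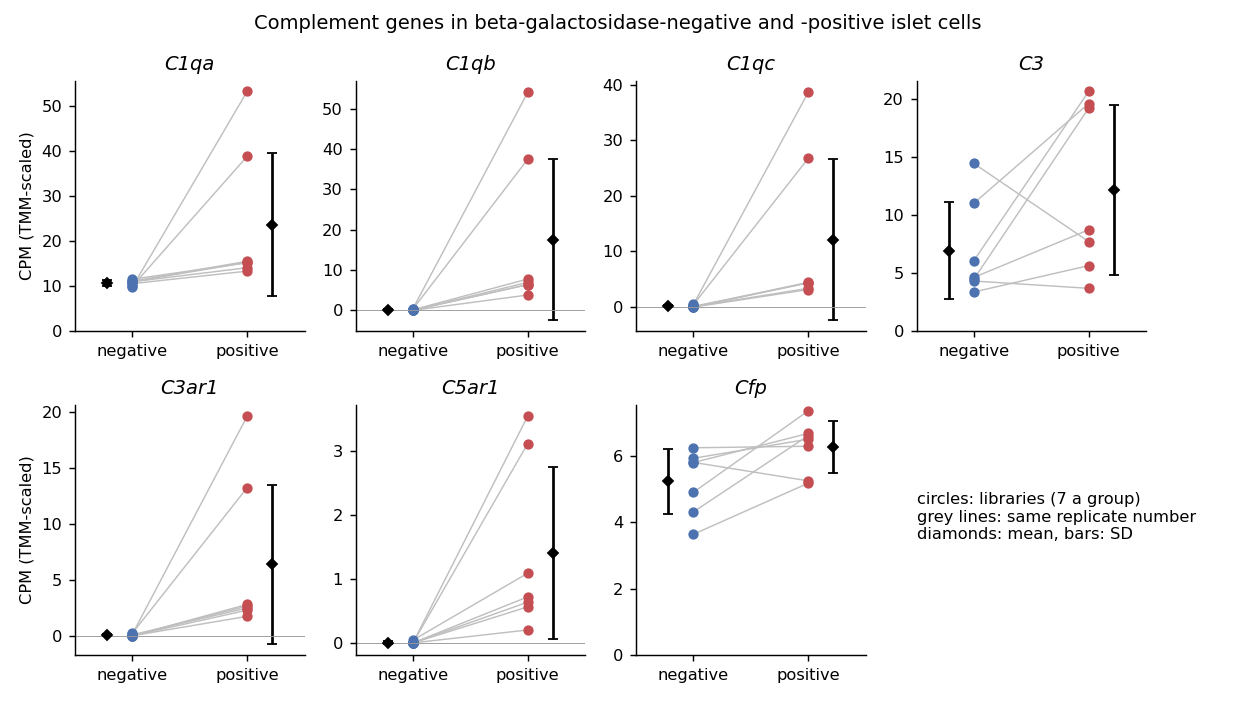
CPM (TMM-scaled) of each of the 7 genes in negative and positive libraries. Circles are libraries, grey lines join libraries of equal number, and diamonds with bars are mean and SD (n = 7 a group). C1qb, C1qc, C3ar1 and C5ar1 lie near 0 in all negative libraries, C1qa lies between 9.88 and 11.6 CPM there, and C3 and Cfp overlap between the groups.

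Plotted against C1qb, C1qa fell on a line that did not start at 0. Over the 14 libraries the least-squares line was 10.3 CPM plus 0.781 times the CPM of C1qb, whereas for C1qc it was −0.157 CPM plus 0.714 times C1qb. Without the libraries numbered 6 and 7, the 10 others gave an intercept of 11.1 CPM and a slope of 0.569 for C1qa, and 0.130 CPM and 0.591 for C1qc. Over positive 1 to 5 alone the slope for C1qa was 0.338 with a Pearson's r of 0.539, so the slope rests on the difference between the groups and on positive 6 and 7. Among negative libraries numbers 6 and 7 had the most C1qb, 8 and 7 reads, and the least C1qa, 9.88 and 10.02 CPM. Slopes and intercepts are descriptions, and the 14 points share their group and their macrophage marker level.

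**Figure D2:**
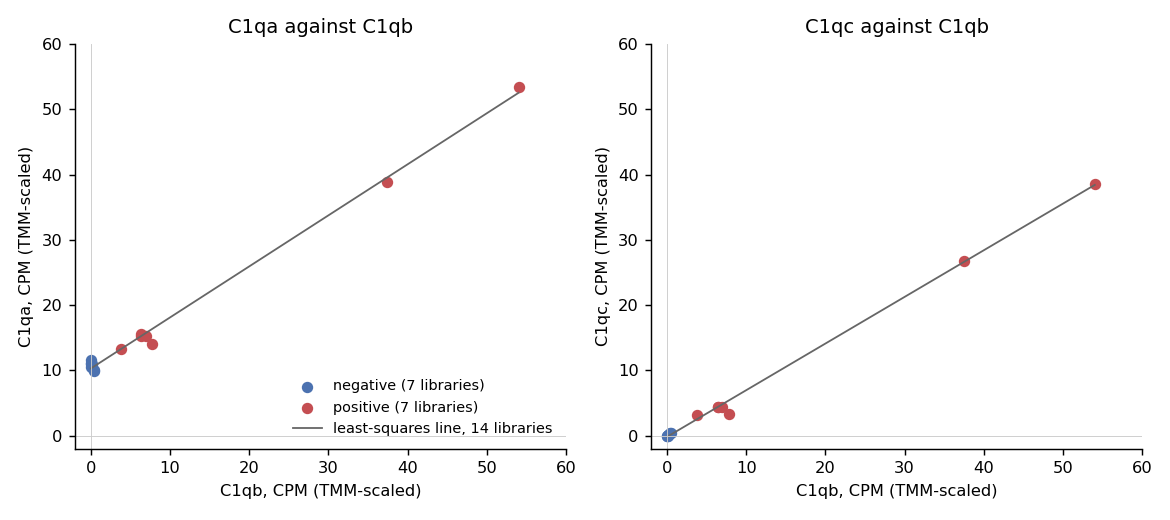
CPM of C1qa (left) and C1qc (right) against CPM of C1qb in 14 libraries, blue negative and red positive, with the least-squares line over all 14. The line of C1qa meets the vertical axis at 10.3 CPM and that of C1qc at −0.157 CPM.

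As a share of all C1q reads, C1qa made up at least 91.7% in each of the 7 negative libraries, 55.9% to 65.8% in positive 1 to 5, and 36.5% and 37.7% in positive 6 and 7. In negative 2, C1qa had 119 of 119 C1q reads (exact 95% lower bound of the share 96.95%), and in positive 6 it had 934 of 2556 (exact 95% interval 34.7% to 38.4%). These intervals cover counting error only. The log2 ratio of C1qa to C1qb plus C1qc, with 0.5 reads added to each, averaged 6.01 ± 2.01 over negative and 0.18 ± 0.67 over positive libraries (SD, n = 7 each). The difference, −5.84, had a p of 0.000583 in an exact two-sided permutation test, the smallest that the 3432 splits can give, and this test was chosen after the counts had been seen. C1qa overlapped no other gene in GENCODE M21, and of its 991 windows of 50 bases, the read length, 0 occurred exactly in a transcript of another gene on either strand. The source of the C1qa reads in negative libraries was not tested. Which strand was counted is not known from the labels or the table.

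Of the genes beside the C1q cluster that passed the filter, only Epha8 was called, where 6.40% of all genes tested were called higher. Epha8, an ephrin receptor 30616 bases beyond C1qa, went from 0.993 ± 0.376 to 1.77 ± 0.227 CPM (log2 fold change 0.83 ± 0.22, SE, adjusted p = 0.0252 in edgeR). Whether this differed from the change of C1qa was not tested. Beyond it the zinc finger gene Zbtb40 was at −0.11 (adjusted p = 0.537). On the other side Ephb2, another ephrin receptor, had 0.22 (adjusted p = 0.641), and the unclassified Gm37583 did not pass the filter.

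Of the receptors, C3ar1 (chromosome 6, 122847138 to 122856161, minus strand) had 0, 0 and 5 reads as lowest, median and highest in negative libraries, and 36, 53 and 344 in positive libraries. In CPM it went from 0.0698 ± 0.0966 to 6.41 ± 7.11 (SD, n = 7 each). The groups did not overlap, and positive 6 and 7 were again highest, the others lying between 1.74 and 2.80 CPM. The log2 fold change of C3ar1 was 6.30 ± 0.92 (SE, adjusted p = 0.000472 in edgeR), higher in all 7 pairs, from 9 reads over the negative libraries.

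C5ar1 (chromosome 7, 16246743 to 16259540, minus strand) was the scarcest of the 7 genes and did not pass the filter on low counts. It had 1 read over all 7 negative libraries, in negative 1, and 5, 14 and 62 reads as lowest, median and highest in positive libraries, 178 in all. Per read sequenced, C5ar1 was 160-fold higher in the pooled positive libraries, with an exact 95% counting interval of 28.3 to 6335. In the fit without a filter its log2 fold change was 6.52 ± 0.97 (SE, adjusted p = 0.000755 in edgeR), where 3.94% of 31875 genes were called higher. Positive 6 and 7 were highest here too, at up to 3.54 CPM against at most 1.09 in the other 5. Neutrophils are another known bearer of this receptor, and 8 summed neutrophil markers were at 0 to 0.159 CPM in negative and 0.323 to 3.71 CPM in positive libraries. None of these markers passed the filter. Of the 8, Csf3r had 0 reads in negative and 160 in positive libraries, S100a9 had 4 and 32, S100a8 had 0 and 27, and Ly6g and Elane were at 0 in all 14 libraries. The part of such cells in the C5ar1 level was not tested.

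C3 itself (chromosome 17, 57203970 to 57228136, minus strand) was present in all 14 libraries. Its lowest, median and highest level was 3.38, 4.63 and 14.4 CPM in negative and 3.69, 8.72 and 20.6 CPM in positive libraries. The groups overlapped, with negative 1 and 3 high and positive 1, 6 and 7 above all others. The log2 fold change was 0.81 ± 0.44 (SE, 95% interval −0.13 to 1.74, adjusted p = 0.317 in edgeR), with C3 higher in 5 of 7 pairs. With the replicate number as a block the adjusted p was 0.202. Negative 3, the highest negative library for C3, also held the most stellate and fibroblast marker RNA, 1448 CPM against 15.4 to 238 CPM in the other libraries. Its part in the C3 level was not tested, and without it the log2 fold change of C3 was 1.06, with an adjusted p of 0.133.

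Cfp (chromosome X, 20925454 to 20931555, minus strand) had 3.64, 5.81 and 6.25 CPM as lowest, median and highest in negative libraries, and 5.18, 6.51 and 7.36 CPM in positive libraries. The groups overlapped, and positive 6 and 7 did not stand out: Cfp had 92 and 113 reads there, against 101 to 157 in positive 1 to 5. Its log2 fold change was 0.26 ± 0.13 (SE, 95% interval −0.02 to 0.53, adjusted p = 0.278 in edgeR), with Cfp higher in 6 of 7 pairs. The interval excludes a fold as large as that of C1qb, C1qc or C3ar1.

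Of the 6 members that passed the filter, 4 were called higher and 0 lower. Over all 16350 genes tested, 6.40% were called higher and 1.63% lower. C1qa, C1qb, C1qc and C3ar1 were those called, and their groups did not overlap, as was so for 3.50% of all genes tested. Since C1qb, C1qc and C3ar1 passed the filter only through their positive libraries, this count is a description. With the block 3 members were called higher (11.8% of all genes) and 0 lower (7.77%). They were C1qb, C1qc and C3ar1, with log2 fold changes of 6.86 ± 0.18, 6.22 ± 0.25 and 6.44 ± 0.30 (SE).

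Levels of different genes were compared per kilobase of annotated exon. In positive libraries C1qa had 22.8 ± 15.3, C1qb 16.1 ± 18.3, C1qc 6.29 ± 7.48 and Cfp 3.61 ± 0.46 CPM per kilobase (SD, n = 7). C3 followed with 2.37 ± 1.42, C3ar1 with 1.49 ± 1.65 and C5ar1 with 0.548 ± 0.522. The SD ranges of neighbours in this order overlapped, but they give the spread between libraries and not the order within them. In every positive library C1qa was above C1qb and C1qb above C1qc. Lower places in the order did not hold in every library. C3 was above Cfp in positive 6 (3.73 against 3.03) and positive 7 (4.01 against 3.75). C3ar1 was above C3 in positive 6 (4.56 against 3.73). The place of C1qc above Cfp came from positive 6 and 7: in positive 1 to 5, C1qc had 1.63 to 2.31 and Cfp 2.99 to 4.24 CPM per kilobase, so Cfp was the higher in each of those 5. In negative libraries the order was C1qa at 10.3 ± 0.59, Cfp at 3.02 ± 0.56 and C3 at 1.34 ± 0.81 CPM per kilobase, while the other 4 were at 0.131 or below. There C1qa exceeded Cfp and C3 by more than their spread.

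Among positive libraries the members were also set against the macrophage markers, whose sums ranged from 1353 to 10716 reads. Per 100 macrophage marker reads, C3ar1 varied little, from 2.54 to 3.21 reads, while C1qc had 3.92 to 6.32 and C1qb 5.55 to 9.02. C5ar1 had 0.295 to 1.15. C1qc was highest in positive 6 and 7, at 6.31 and 6.32, against at most 4.61 in the others. In negative libraries the marker sum itself rested on few genes: of its 1344 reads, 545 were of Cd68 and 265 of Csf1r.

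**Figure D3:**
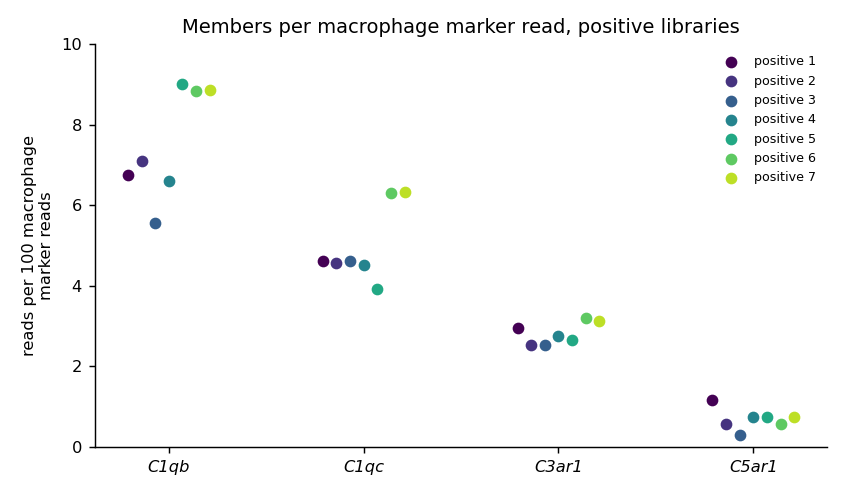
Reads of C1qb, C1qc, C3ar1 and C5ar1 per 100 summed reads of 17 macrophage markers in the 7 positive libraries, coloured by library. C3ar1 lies between 2.54 and 3.21 in all 7, and C1qc is at 6.31 and 6.32 in positive 6 and 7 and at most 4.61 in the others.

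Whether members changed unequally was tested on ratios within libraries, with 0.5 reads added to each count and exact two-sided permutation tests adjusted over the ratios of a family. Relative to the summed C1q chains, C3 was lower in positive libraries, the log2 ratio going from −0.87 ± 0.78 to −1.95 ± 0.88 (SD, n = 7 each, difference −1.08, exact permutation p adjusted over 4 ratios = 0.0332). That of Cfp went from −1.09 ± 0.31 to −2.65 ± 1.23 (difference −1.55, exact permutation adjusted p = 0.000777), and the difference was −0.77 without the libraries numbered 6 and 7 (exact permutation adjusted p = 0.0106). Because the negative sum was almost all C1qa, the ratios were also taken to C1qb plus C1qc only. The differences were then −6.02 for C3 and −6.49 for Cfp (exact permutation adjusted p = 0.00117 for both). For C3 the smaller difference lost its call without the libraries numbered 6 and 7 (−0.88, exact permutation adjusted p = 0.151) and without any of 7 single libraries, negative 1, 3 or 7 or positive 4, 5, 6 or 7 (up to 0.0664).

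For both receptors the outcome depended on C1qa. Relative to all 3 chains, C3ar1 was higher in positive libraries by 4.17 and C5ar1 by 2.98 on the log2 scale (exact permutation adjusted p = 0.000777 for both), the latter by 1.27 with 2 reads added. Relative to C1qb plus C1qc, the differences were −0.76 and −1.96 and were not called (exact permutation adjusted p = 0.301 and 0.0800). With negative counts of 0 to 9 for these genes, the added 0.5 reads bear heavily on such ratios, and a difference between the changes of C3ar1 and of C1qb with C1qc was not detectable at this depth.

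Relative to the macrophage markers, the log2 ratio of Cfp went from −1.01 ± 0.32 in negative to −4.54 ± 1.34 in positive libraries, and that of C3 from −0.78 ± 0.87 to −3.84 ± 0.93 (SD, n = 7 each). The differences, −3.52 and −3.05, each had an exact permutation p, adjusted over 5 ratios, of 0.000728. The ratio of the summed C1q chains fell by 1.97, and that of C1qb plus C1qc rose by 2.96 (exact permutation adjusted p = 0.000728 for both), so that the direction turned on C1qa. Since C1qb and C1qc both had 0 reads in negative 2 and 3, the size of that rise depends on the 0.5 reads added. It was not taken with 2 reads added. The ratio of C3ar1 rose by 2.20 with 0.5 reads added and by 0.84 with 2 reads added (exact permutation adjusted p = 0.000728 for both). The negative marker sum was mostly Cd68 and Csf1r, which rose by only 2.28 and 2.89 on the log2 scale. Single markers rose by up to 6.66 (Mpeg1). A rise relative to the sum is therefore not a rise beyond each marker. C5ar1 gave a difference of 1.00 (exact permutation adjusted p = 0.0169) that turned to −0.695 with 2 reads added instead of 0.5 (0.0490), and was 0.59 without the libraries numbered 6 and 7 (0.127).

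The other genes of the cascade were taken by role. Of 19 genes of initiation and proteases 6 passed the filter, and edgeR called 0 of them in either direction (median log2 fold change 0.09; 1 higher and 0 lower at an unadjusted p below 0.05, and 0 called by DESeq2). They include C1ra and C1s1, the proteases bound to C1q, at 1.22 ± 0.55 and 1.34 ± 2.10 CPM in negative and 1.48 ± 0.45 and 1.25 ± 0.43 CPM in positive libraries. Their log2 fold changes were 0.28 ± 0.27 and −0.10 ± 0.61 (SE), so the partner proteases did not show a rise of the size of C1qb. For C1s1 the negative median was 0.665 and the highest negative value 6.07 CPM, against a positive median of 1.35 CPM. Without negative 3, C1s1 was called higher (adjusted p = 0.0213 in edgeR). With the block its log2 fold change was 0.45 (adjusted p = 0.572 in edgeR). With the block C4b was called lower (log2 fold change −0.73, adjusted p = 0.0318), a gene whose reads can be split with its near-identical copy C4a. Among the 13 that did not pass were Cfb and Cfd, the proteases of the alternative route, with 61 and 0 reads in negative and 82 and 3 reads in positive libraries. Of 7 terminal components, which form the membrane attack complex, 2 passed and edgeR called 0 (0 at an unadjusted p below 0.05, 0 by DESeq2). C8b had 14.6 ± 2.90 CPM in negative and 11.4 ± 4.54 CPM in positive libraries, and Hc, the gene of C5, had 3 and 1 reads in all.

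Of 9 further receptors 5 passed the filter, of which 3 rose and 0 fell (0 lower at an unadjusted p below 0.05, and 0 lower by DESeq2). Itgax, the alpha chain of complement receptor CR4, went from 0.129 ± 0.173 to 12.2 ± 14.1 CPM (log2 fold change 6.39 ± 0.98, SE, adjusted p = 0.000788 in edgeR). Itgb2, the beta chain it shares with CR3, went from 0.213 ± 0.110 to 7.49 ± 7.46 CPM (5.08 ± 0.68, adjusted p = 0.000257). Itgam, the alpha chain of CR3, did not pass the filter, with 8 reads in negative and 365 in positive libraries. Cd93, a membrane lectin once described as a C1q receptor and well known from endothelial cells, went from 2.78 ± 2.81 to 71.8 ± 32.0 CPM (4.62 ± 0.54, adjusted p = 0.000132). Calr, calreticulin, an abundant chaperone that also binds C1q, was at 874 ± 92.2 and 954 ± 177 CPM (0.13, adjusted p = 0.555). Its partner Lrp1 was at 35.8 ± 24.3 and 68.1 ± 30.8 CPM (0.93, adjusted p = 0.175). Without negative 3, Lrp1 was called higher (adjusted p = 0.00964 in edgeR). Vsig4, a receptor for C3 fragments on resident macrophages, had 0 and 1 reads, and C5ar2, the other C5a receptor, 0 and 5.

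Of 11 regulators that passed the filter, out of 17, only Thbd was called. Thbd, thrombomodulin, an endothelial protein that also restrains complement, went from 7.42 ± 1.08 to 13.2 ± 2.99 CPM (log2 fold change 0.83 ± 0.14, SE, adjusted p = 0.00101 in edgeR; 0.0511 without the libraries numbered 6 and 7). Among regulators 0 fell in edgeR, 1 was lower at an unadjusted p below 0.05, and DESeq2 called 1 lower, Serping1. Serping1, the inhibitor of the C1 proteases, had 71.2 ± 8.38 CPM in negative and 57.3 ± 9.60 CPM in positive libraries (−0.31 ± 0.10, adjusted p = 0.0816), and was called under the block (0.0165). Clu, clusterin, was at 150 ± 35.2 and 242 ± 112 CPM (0.69 ± 0.25, adjusted p = 0.117 in edgeR), and was called under the block (0.0180) and by DESeq2. Cr1l, the mouse C3 convertase regulator Crry, was at 44.6 ± 2.27 and 47.9 ± 5.63 CPM (0.10 ± 0.07, adjusted p = 0.446). Cpn1, which inactivates C3a and C5a, and Susd4 were not called, at −0.10 and −0.17 on the log2 scale.

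The 4 cascade lists together had 24 of 52 genes tested, of which 4 rose and 0 fell (6.40% and 1.63% over all genes), with a median log2 fold change of 0.07 against 0.00037 over all 16350 genes. Of the 4, Itgax and Itgb2 passed the filter only through their positive libraries, so the count is a description. At an unadjusted p below 0.05 there were 7 higher and 1 lower, and DESeq2 called 5 higher and 1 lower. Of 24 proteins with C1q-like domains or C1q-derived names outside the cascade, 8 passed and 1 rose (6.40% over all genes). It was Mmrn2, an endothelial matrix protein (from 0.533 ± 0.698 to 21.8 ± 10.9 CPM, log2 fold change 5.20, adjusted p = 0.000132 in edgeR). Mmrn2 had 73 reads over the negative libraries and also passed the filter only through its positive ones, so this count is a description. C1qbp, a mitochondrial protein named for binding C1q, had 0.10 (adjusted p = 0.570). Emilin1 had −0.34 (adjusted p = 0.563; 0.00596 with the block). In the same libraries summed macrophage and endothelial markers were higher, as given above. Both delta cell markers were called higher too, Sst going from 181 to 1088 CPM and Hhex from 1.16 to 6.80 CPM. Of 7 tested stellate and fibroblast markers, Rgs5 and Pdgfrb, both known from pericytes, rose (log2 fold changes 4.02 and 2.42, adjusted p = 0.000292 and 0.0466 in edgeR). The others were not called. Col1a1, Col1a2, Col3a1 and Dcn had log2 fold changes of −2.13, −1.80, −2.27 and −0.88, and Acta2 had 0.76. Of 5 tested acinar markers Pnlip fell (−3.56, adjusted p = 0.0128), and of 2 lymphocyte markers Cd79b rose and Cd79a fell (1.36 and −1.45). The part of any of these cell types in the changes of complement genes was not tested.

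**Figure D4:**
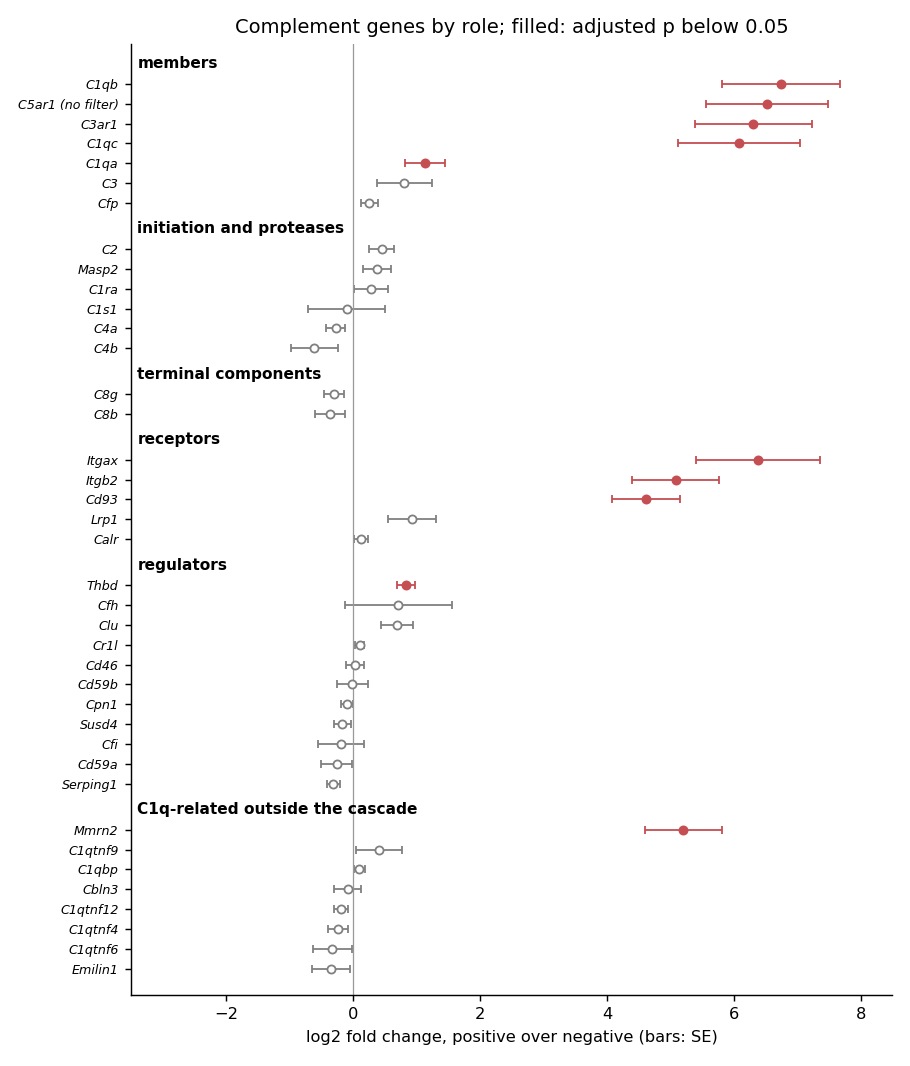
Log2 fold change (positive over negative) with SE of the 7 members and of the tested genes of the other complement lists, by role. Filled red points have an adjusted p below 0.05. C5ar1 comes from the fit without a filter. C1qb, C1qc, C3ar1, C5ar1, Itgax, Itgb2, Cd93 and Mmrn2 lie above 4, and the remaining genes below 1.2.

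The genes most like the C1q chains among the 7 positive libraries were sought by Pearson's r of log2 CPM with the mean of the 3 chains, over 11649 genes of at least 5 CPM. They were Laptm5 (0.999), a lysosomal membrane protein of blood cells, Ctss (0.998), a cathepsin of antigen-presenting cells, Ptafr (0.998), the receptor of platelet-activating factor, Csf1r (0.998), the macrophage growth factor receptor, and Cd74 (0.998), the invariant chain. Without positive 6 and 7, their r over 5 libraries was 0.986, 0.928, 0.945, 0.907 and 0.990. For C3 the most alike were Apobr (0.988), Lars (0.984), Mrps5 (0.983), Slc7a3 (0.979) and Fam129a (0.977). No gene was in both groups of 5. These values rest on 7 libraries that share depth and cell mix, and are descriptions.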

How the data were processed

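Poly(A) RNA of sorted islet cells was sequenced as single 50-base reads in 14 libraries, per the labels' protocols and the series' design text. Per the submitters' processing notes, reads were placed on GRCm38 with Subread and counted per gene with featureCounts. Tool versions, annotation and strand setting are not known here. The authors deposited these raw counts, whose columns were matched to samples by the code in each title.

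Genes were tested with edgeR 4.0.16 in R 4.3.3 (filterByExpr, leaving 16350 genes; TMM; robust quasi-likelihood F-test on group), with Benjamini-Hochberg adjustment and a threshold of 0.05. SE came from the F statistic. The script was tested on simulated counts. Ratios were tested by exact permutation in Python 3.11.15. Exon lengths and coordinates are from GENCODE M21 (GRCm38). The members and lists were chosen with earlier results of these data known. All 7 members are named, as are called genes of the lists and others of at least 10 CPM; a few more were named after their values were seen (C1ra, C1s1, C4b, Cfb, Cfd, Hc, Itgam, Vsig4, C5ar2).

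Deviations from group means of libraries of equal number correlated across genes at 0.203 to 0.540 in the 7 pairs (median for unequal numbers −0.125). The numbers in the titles may thus pair the libraries, which the labels do not say. The main fit and the main permutation tests did not use the numbers, and the replicate block was run only as an alternative. No replicates agreed within sampling noise (chi-square per degree of freedom at least 5.36). Alternatives were RLE size factors, DESeq2 1.42.0, no filter, the replicate block, leaving out each library, and, added later, leaving out libraries 6 and 7.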

Additional observations from a re-analysis of the deposited data

Results flagged for a closer look

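C5ar1 in negative 1 was far from the rest of its group, at 0.0427 CPM against 0 in the other 6 negative libraries. The value is a single read. Among 16 sets of 7 values examined this was the only one set apart in this way. The rule's chance rate of about 1 in 20 is for continuous values. Any single read among values of 0 would be set apart, so the flag carries no weight.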

How the results depend on the processing

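The calls of C1qb, C1qc and C3ar1 kept their direction and their side of the threshold in all alternatives run, whereas that of C1qa was lost as given above. With the replicate block 1930 genes were called higher and 1270 lower, and of the complement lists 3 were lower. DESeq2 called 499 genes lower, and it and the fit with no filter each called 1 listed gene lower. Without the libraries numbered 6 and 7, chosen after seeing the data, 536 genes were called higher and 45 lower. Leaving out single libraries gave 140 to 616 lower genes (616 without negative 3; 140, 160 and 162 without positive 6, 3 and 7), 3 to 5 members called higher, and 5 to 9 listed genes higher (9 without negative 3) and 0 to 2 lower (2 without positive 1). In 8 of the 14 fits without 1 library, C5ar1 passed the filter and was called higher (adjusted p = 0.000124 to 0.0212 in edgeR). C1qa lost its call in 8 of the 14, so the members called changed even where their number did not. The ratio of C3 to the C1q sum ranged from −1.34 to −0.86 over single libraries left out and was −0.88 without numbers 6 and 7. With C1qb and C1qc alone as the C1q sum, also added later, the ratios of C3ar1 and C5ar1 to it were −0.76 and −1.96, and that of the C1q sum to macrophage markers was 2.96. The ratio of C5ar1 to those markers was −0.695 with 2 reads added and 0.59 without numbers 6 and 7. The causes were not tested beyond these settings. Depth limits C1qb, C1qc, C3ar1 and C5ar1 in negative libraries, where each had at most 9 reads in a library.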
